A study of Rattus norvegicus with 6 samples.

Results

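The 6 genes described here are markers of white blood cells in the heart: 4 of myeloid cells (S100a9, Lyc2, C1qb and Aif1) and 2 of T cells (Cd8a and Cd3d). They were taken by gene symbol from an array of 1185 probes, of which 1113 carried 1 symbol and covered 1103 genes, and each of the 6 had a single probe. The array was hybridised with total RNA of whole rat hearts, 1 array per heart, from 3 rats after cardiopulmonary bypass (CPB, where a machine pumps and oxygenates the blood in place of heart and lungs) and from 3 rats with a sham operation. Strain, age, anaesthesia, length of bypass and time of sampling are not stated in the labels. The genes were chosen by name with their measured CPB minus sham differences already in view, so these differences are described with their errors and without a test.

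Bypass brings blood into contact with foreign surfaces, which is known to activate complement, neutrophils and monocytes. Neutrophils circulate in blood and enter tissue when recruited by chemokines and adhesion molecules, while resident macrophages live in the heart muscle and clear debris. T cells are scarce in a healthy heart and recognise antigen through a receptor bound to the CD3 chains, with CD8 or CD4 as coreceptor. In RNA from a whole heart, fewer cells of a type cannot be told apart from less RNA per cell. Blood left in the vessels is measured too, and its share was not tested, since 0 of 15 red cell and platelet genes listed had a probe.

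Intensities are given in log2 after the arrays were brought to a common distribution (quantile normalization). Each array reports intensity in whole steps above a lowest level, and 10.7% to 47.3% of probes lay at that level, most on CPB replicate 3 and fewest on CPB replicate 2. Normalized values of dim probes therefore fall on few levels, and the number of steps is given where it limits a value. The muscle genes Tnnt2 and Myh6 were the 2 brightest probes on every array. Of 1185 probes, 498 (42%) exceeded the lowest level on all 6 arrays, and 5 of the 6 marker genes were among them, all but Aif1. The precision of each difference is limited by the 3 arrays per group.

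S100a9 (probe RA0083) encodes a subunit of calprotectin, a calcium-binding protein that neutrophils and monocytes hold in large amounts. Its normalized log2 intensity was 9.49, 11.39 and 10.81 in CPB replicates 1, 2 and 3, and 10.88, 12.47 and 11.55 in sham replicates 1, 2 and 3. The groups overlapped, because CPB replicate 2 lay above sham replicate 1. The group means were 10.56 ± 0.97 (SD, n = 3) after CPB and 11.63 ± 0.79 (SD, n = 3) after the sham operation, a log2 difference of -1.07 (SE 0.47), or 0.476 times the sham level. In both groups replicate 1 was the lowest heart and replicate 2 the highest, and each CPB heart lay below the sham heart of the same number, by -1.39, -1.08 and -0.74 on the log2 scale. Nothing in the labels says that hearts of the same number are a pair, here or for the genes below. The spread of S100a9 within groups (SD 0.89) was larger than that of 98.3% of the probes. CPB replicate 1 held S100a9 only 2 steps above the lowest level, where 1 step is worth 0.61 in log2, against 33 steps on CPB replicate 2 and 48 on sham replicate 2. The difference was -0.54 without CPB replicate 1, so that heart carries much of its size, and -0.65 without sham replicate 2.

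Lyc2 (probe RA1192) encodes a lysozyme, the enzyme with which macrophages and neutrophils cut bacterial cell walls. The rat RefSeq annotation (GRCr8) places Lyc2 next to a second lysozyme gene, Lyz2, with 0 annotated genes between them, and lists Lyz2 as an older synonym of Lyc2. The stretches before the start of both genes are shown to let a reader see how alike the neighbouring genes are up to the first transcribed base. Both read 5′ to 3′ on the strand of their gene, at chr7:54772909-54773008 on the plus strand for Lyc2 and chr7:54798012-54798111 on the minus strand for Lyz2, and capitals mark the run that both share up to the start.
Lyc2: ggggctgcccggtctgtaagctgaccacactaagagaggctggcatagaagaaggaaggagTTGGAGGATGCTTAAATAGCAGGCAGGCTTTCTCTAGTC
Lyz2: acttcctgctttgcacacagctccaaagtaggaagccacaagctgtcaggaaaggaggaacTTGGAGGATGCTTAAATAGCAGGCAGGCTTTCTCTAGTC
The shared run is 39 bases long, and the first 50 transcribed bases that follow it match at 50 of 50 positions. Farther upstream only 45 of 211 positions at the same distance from the start match. The array has no probe of its own for Lyz2. The sequence of the Lyc2 probe was not examined, so whether it also reports Lyz2 RNA was not tested.

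Lyc2 was at 10.69, 10.50 and 10.09 in CPB replicates 1, 2 and 3, and at 10.88, 11.39 and 11.55 in the sham replicates. All 3 CPB values lay below all 3 sham values, as they did in the values as deposited but not after median scaling. Of the 6 marker genes, Lyc2 was the only one whose groups did not overlap after quantile normalization, which also held for 50 of 1185 probes (4.22%), 31 of them (2.62%) with CPB lower. The gap was narrow between CPB replicate 1 and sham replicate 1, at -0.19, and it was -0.89 and -1.46 for numbers 2 and 3. The means were 10.43 ± 0.31 (SD, n = 3) and 11.27 ± 0.35 (SD, n = 3), a log2 difference of -0.85 (SE 0.32), or 0.555 times the sham level. Lyc2 stood 7, 15 and 2 steps above the lowest level on the CPB arrays and 5, 20 and 7 on the sham arrays. Its within-group SD of 0.33 was larger than that of 50.1% of probes, so the lysozyme probe varied as a typical probe does.

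C1qb (probe RA0229) encodes a chain of C1q, the recognition molecule that opens the classical complement pathway and is made mainly by macrophages. Its normalized log2 intensity was 11.95, 11.93 and 12.36 in CPB replicates 1, 2 and 3, and 12.47, 12.23 and 12.68 in the sham replicates. CPB replicate 3 lay above sham replicate 2, so the groups overlapped. The means were 12.08 ± 0.24 (SD, n = 3) and 12.46 ± 0.22 (SD, n = 3), a log2 difference of -0.38 (SE 0.28), or 0.768 times the sham level. By number the differences were -0.52, -0.30 and -0.32. C1qb stood 15 to 50 steps above the lowest level, where 1 step is worth at most 0.09 in log2, so step size limited it little.

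Aif1 (probe RA0770) encodes the actin-bundling protein Iba1, used as a stain for macrophages. It was at 9.49, 8.99 and 8.68 in CPB replicates 1, 2 and 3, and at 9.20, 9.35 and 8.68 in the sham replicates. On both arrays numbered 3 it was at the lowest level, and it stood only 1 or 2 steps above it on the other 4. The log2 difference was -0.02 (SE 0.31, 95% interval of the limma fit -0.68 to 0.63). The interval includes changes of the size seen for C1qb in both directions, so a difference of that size was not detectable with this probe.

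Cd8a (probe RA0947) encodes the alpha chain of the CD8 coreceptor of cytotoxic T cells, which rat natural killer (NK) cells also carry. It was at 10.09, 9.73 and 11.93 in CPB replicates 1, 2 and 3, and at 9.76, 9.76 and 9.49 in the sham replicates. CPB replicate 3 alone lay far above the other 5 hearts, which spanned 9.49 to 10.09, and CPB replicate 2 lay just below 2 of the sham hearts. The means were 10.58 ± 1.18 (SD, n = 3) and 9.67 ± 0.15 (SD, n = 3), a log2 difference of 0.92 (SE 0.47), or 1.89 times the sham level. Without CPB replicate 3 the difference was 0.24. On that array Cd8a stood 10 steps above the lowest level, against 4 and 6 steps on the other CPB arrays and 2, 4 and 1 on the sham arrays.

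Cd3d (probe RA0962) encodes the delta chain of CD3, which T cells need to bring their receptor to the surface. It was at 9.76, 9.52 and 10.09 in CPB replicates 1, 2 and 3, and at 10.32, 9.35 and 10.16 in the sham replicates. The groups overlapped, and CPB replicate 3, the heart with the high Cd8a value, was within the range of the sham hearts. The means were 9.79 ± 0.29 (SD, n = 3) and 9.94 ± 0.52 (SD, n = 3), a log2 difference of -0.15 (SE 0.37, 95% interval of the limma fit -0.93 to 0.63). Cd3d stood 2 to 5 steps above the lowest level, so 1 step was worth between 0.18 and 0.48 in log2.

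**Figure D1:**
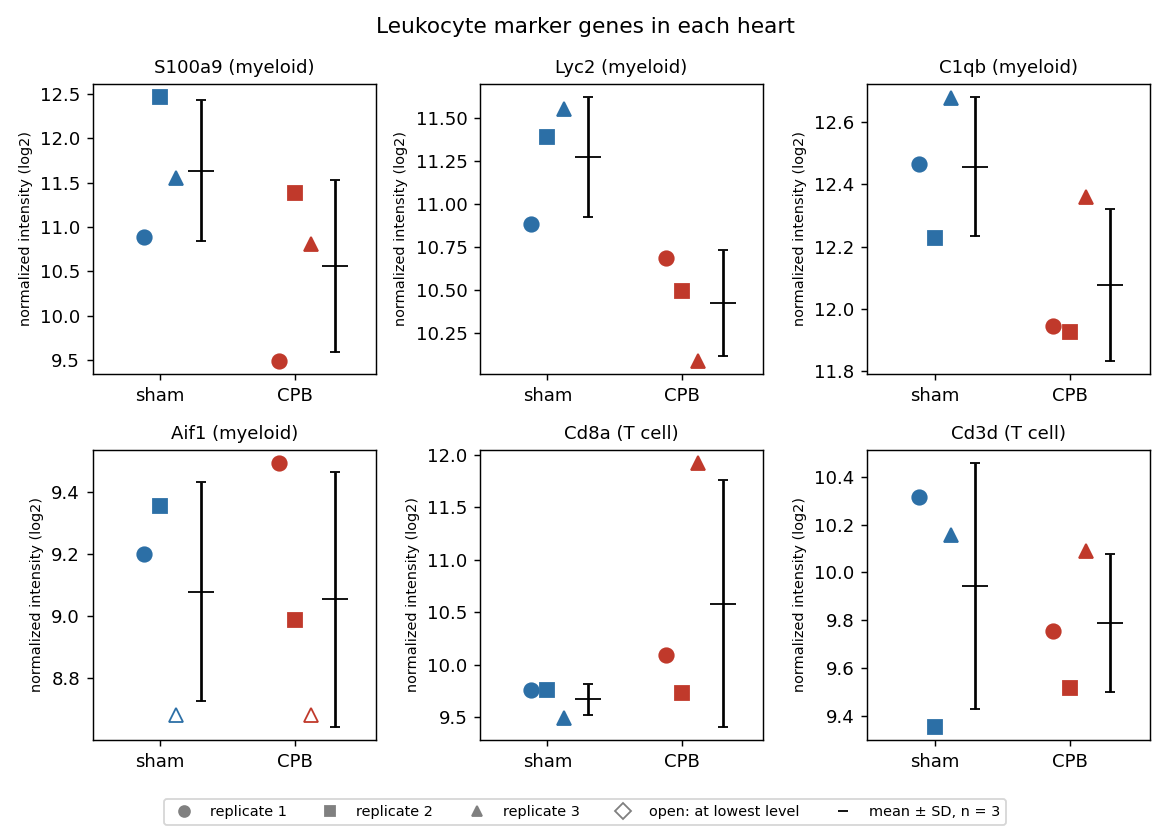
Normalized log2 intensity (vertical axis, a separate range in each panel) of the 6 marker genes in 3 sham (blue) and 3 CPB (red) hearts, with symbols for the replicate number, open symbols at the lowest level, and black bars for the mean ± SD of 3 hearts. With this normalization only Lyc2 has groups that do not overlap (after median scaling its groups overlap and those of Cd8a are apart), and CPB replicate 3 holds the highest Cd8a value at 11.93.

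S100a9 and Lyc2 were lower and Cd8a higher in CPB hearts under each of 3 scalings of the arrays, while the sign of C1qb, Aif1 and Cd3d depended on the scaling. The median difference over all probes was -0.03 after quantile normalization, -0.29 in the values as deposited and 0.11 when arrays were scaled to the same median. An array median is itself a dim value. On CPB replicate 1 it was 8.51 as deposited, below the 9.12 found there at 2 steps above the lowest level. The factor of median scaling for that array thus follows coarse steps, and the effect of this on the signs was not tested. S100a9 differed by -1.23 as deposited and -0.83 after median scaling, and Lyc2 by -0.89 and -0.49. C1qb differed by -0.33 as deposited and 0.07 after median scaling. Cd8a differed by 0.60 as deposited and 0.997 after median scaling. Aif1 moved from -0.25 to 0.14 and Cd3d from -0.22 to 0.18. Of the 6 genes, 5 were lower in CPB hearts after quantile normalization, as were 622 of all 1185 probes (52.5%), and 2 after median scaling. After quantile normalization and as deposited, S100a9, Lyc2 and C1qb were lower in CPB in all 3 same-numbered pairs. So were 77 of all probes (6.5%) after quantile normalization. As deposited Aif1 was too, by -0.43, -0.30 and -0.04, the last where both arrays were at the lowest level. The shares of all probes that were lower, lower in all 3 pairs or with groups apart were counted only after quantile normalization. They were not counted for the values as deposited or after median scaling, so the counts given there have no share beside them. After median scaling S100a9 alone of the 6 genes was lower in all 3 pairs, and pair 1 turned to 0.64 for Lyc2 and 0.52 for C1qb. The groups of Lyc2 then overlapped, with CPB replicates 1, 2 and 3 at 11.34, 10.81 and 9.73 and the sham replicates at 10.70, 11.64 and 11.03. Those of Cd8a were then apart, by a narrow gap, at 10.65, 9.84 and 11.39 in CPB and 9.78, 9.83 and 9.28 in sham hearts.

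**Figure D2:**
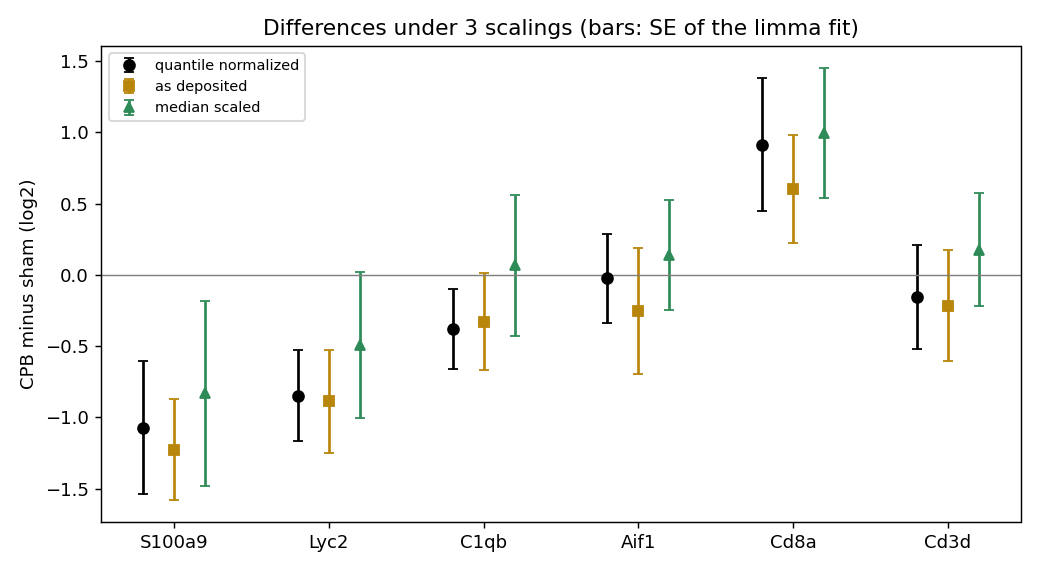
CPB minus sham log2 difference (vertical axis) of the 6 marker genes with the arrays quantile normalized (black circles), as deposited (yellow squares) and scaled to the same median (green triangles), bars giving the SE of the limma fit. S100a9 and Lyc2 lie below 0 and Cd8a above 0 in all 3, while C1qb, Aif1 and Cd3d fall on both sides of 0.

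Set against each other in the same heart, the mean of the myeloid markers was lower and that of the T cell markers higher after CPB. The myeloid side rested mostly on S100a9 and Lyc2, and the T cell side on Cd8a in 1 heart, since Cd3d differed by -0.15. The mean of the 4 myeloid genes was 10.40, 10.70 and 10.48 in CPB replicates 1, 2 and 3, and 10.86, 11.36 and 11.11 in the sham replicates. The group means differed by -0.58 in log2 (-0.67 as deposited, -0.28 after median scaling), and the groups did not overlap except after median scaling. The mean of Cd8a and Cd3d was 9.92, 9.63 and 11.01 in CPB and 10.04, 9.56 and 9.83 in sham hearts. All but CPB replicate 3 lay in the same range, and the group means differed by 0.38 (0.19 as deposited, 0.59 after median scaling).

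Myeloid minus T cell mean was 0.48, 1.07 and -0.52 in the CPB hearts and 0.82, 1.80 and 1.29 in the sham hearts. Its level has no meaning across probes, but its change between hearts is free of any single factor applied to an array. The group means were 0.34 ± 0.81 (SD, n = 3) and 1.31 ± 0.49 (SD, n = 3), a difference of -0.96, and CPB replicate 2 lay above sham replicate 1. By replicate number the differences were -0.34, -0.73 and -1.81, lower in CPB in 3 of 3 same-numbered pairs. The labels do not say that the numbers pair the hearts, and no share over other genes was counted for this measure. The difference was -0.53 without CPB replicate 3 and -0.43 with Cd3d as the only T cell gene, so its size rests in part on the high Cd8a value of that heart.

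**Figure D3:**
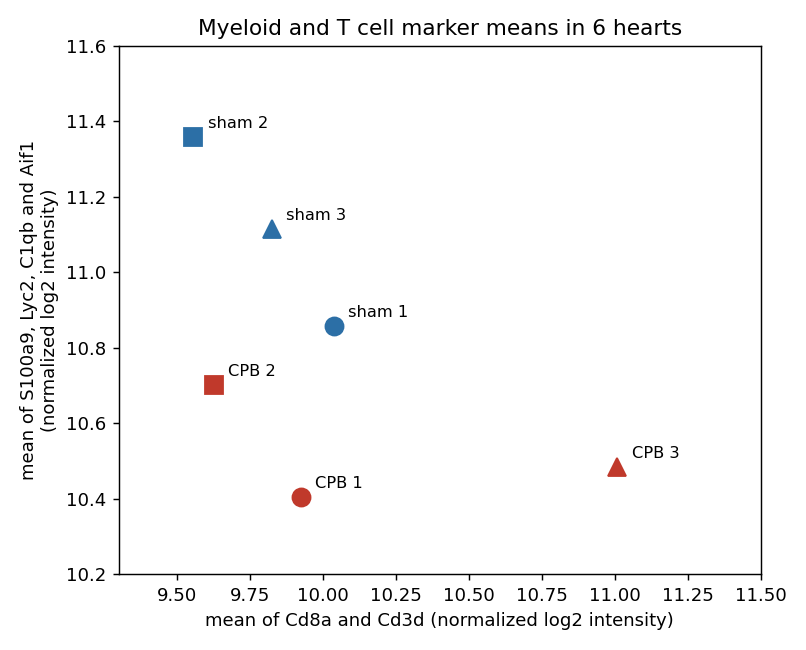
Mean normalized log2 intensity of the myeloid markers (vertical axis) against that of the T cell markers (horizontal axis) in each heart, CPB in red and sham in blue, with symbols for the replicate number. The 3 CPB hearts lie below the 3 sham hearts on the vertical axis, though after median scaling the myeloid means of the groups overlap. CPB replicate 3 stands alone at 11.01 on the horizontal axis.

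Log ratios of pairs of these genes within an array, taken from the values as deposited and therefore free of any single scaling factor per array, compare the genes with each other. S100a9 over C1qb was -2.85, -0.55 and -1.55 in CPB replicates 1, 2 and 3, and -1.52, 0.22 and -0.95 in the sham replicates, a difference of -0.90. Lyc2 over C1qb was -1.40, -1.54 and -2.17 against -1.52, -0.96 and -0.95, a difference of -0.56. C1qb over Cd3d differed by -0.11, and C1qb over Aif1 by -0.07, where Aif1 is near its lowest level. Cd8a over Cd3d was 0.33, 0.16 and 1.66 in CPB and -0.37, 0.55 and -0.48 in sham hearts, a difference of 0.82 with overlapping groups. In the mean of 3 hearts S100a9 and Lyc2 were thus lower relative to C1qb after CPB, and the group ranges overlapped for each of the ratios above. Over Cd8a the differences were -1.83 for S100a9, -1.49 for Lyc2 and -0.93 for C1qb, also with overlapping groups. Aif1 over Cd8a was -0.76, -0.80 and -2.78 in CPB and -0.50, -0.55 and -0.72 in sham hearts, a difference of -0.86. Its groups were apart by a narrow gap. Each ratio over Cd8a was lowest in CPB replicate 3, the heart with high Cd8a.

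Around these genes, 11 lists of leukocyte genes held 316 genes, of which 42 were measured besides the 6 markers. None of the 42 passed the limma adjusted threshold of 0.05 (0 of 42, smallest adjusted p = 0.909), and 0 of 42 had an unadjusted p under 0.05. Over all probes 0 of 1185 passed (0%), and 35 (2.95%) had an unadjusted p under 0.05. Of the 42 genes, 16 were higher, 24 lower and 2 equal in CPB hearts, and their median log2 difference was -0.07, against -0.03 for all probes. Only 14 of the 42 exceeded the lowest level in every heart, so most of them had no measured level in at least 1 heart. In 0 of the 42 were the groups apart.

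The myeloid lists held few other probes. Cyba, a subunit of the NADPH oxidase with which phagocytes make superoxide, was the only other neutrophil gene of 26 listed with a probe. Its values were 10.09, 9.35 and 10.09 in the CPB replicates and 9.76, 10.09 and 9.49 in the sham replicates. It differed by 0.07 (SE 0.36), well within its error. Of 34 monocyte and macrophage genes the only other one was Tlr4, the receptor for endotoxin, at the lowest level on 5 of 6 arrays. The 5 other S100 genes had a median log2 difference of -0.08. Among them S100a4 differed by -0.14 (SE 0.36), S100a10 by -0.08 (SE 0.42) and S100a1, the form of heart muscle, by -0.20 (SE 0.21), all smaller than the S100a9 difference of -1.07. Counted in steps over the lowest level, S100a1 stood at 0, 2 and 0 after CPB and 1, 1 and 0 after sham. S100a4 stood at 1, 5 and 1 against 1, 4 and 1, and S100a10 at 2, 17 and 1 against 2, 11 and 1. A fall as large as that of S100a9 had little room to show in S100a1 and S100a4. S100a10 had such room mainly on the arrays numbered 2. The contrast between S100 genes was not tested.

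Among the complement genes, 12 were measured besides C1qb, of which 3 were higher, 7 lower and 2 equal in CPB hearts (median -0.07). C1s, the protease that C1q activates, had values of 11.45, 11.33 and 11.54 in the CPB replicates and 11.13, 11.39 and 10.87 in the sham replicates, a log2 difference of 0.31 (SE 0.29, limma adjusted p = 0.909). It was named after its values were seen. C4bpa, a soluble inhibitor of the classical pathway made mainly by the liver, differed by -0.34 (SE 0.17), with all 3 CPB arrays and 1 sham array at the lowest level. Mbl1, a lectin that opens another complement route, differed by 0.28 (SE 0.21), and the terminal component C9 by -0.14 (SE 0.13). Both were at the lowest level on 5 of 6 arrays.

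For lymphocytes, Lat, an adaptor that links the T cell receptor to its kinases, was the only other T cell gene of 31 with a probe. It differed by -0.11 (SE 0.33) and was at the lowest level on 1 array of each group. The B cell genes Cd37, a tetraspanin, and Fcer2, a receptor for IgE, differed by -0.47 (SE 0.43) and 0.07 (SE 0.21). Cd37 was at the lowest level on 1 CPB array, and Fcer2 on 1 CPB array and 2 sham arrays. Of 8 NK cell and cytotoxic granule genes, 4 were higher and 4 lower. The NK receptors Klra22, Klrc2 and Klrk1 differed by 0.42 (SE 0.27), -0.48 (SE 0.35) and -0.34 (SE 0.28). Klra22 was at the lowest level on 1 CPB array and 2 sham arrays, and Klrc2 and Klrk1 on 1 CPB array each. Prf1, the pore-forming perforin of CD8 T cells and NK cells, was named after its values were seen. It stood at 8.61, 9.35 and 10.49 in CPB replicates 1, 2 and 3 and at 8.61, 9.52 and 9.49 in the sham replicates. Its highest value was in CPB replicate 3, the heart with high Cd8a, at 3 steps above the lowest level. Klrd1, a partner chain of NK receptors also named after its values were seen, was in that heart at its lowest value of the 6, 10.81, against 11.70 to 12.43 in the others.

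All 4 mast cell and basophil genes measured were lower in CPB hearts (median -0.20), as were 622 of all 1185 probes (52.5%). Srgn, the granule proteoglycan serglycin, differed by -0.24 (SE 0.35) and Fcer1a, the IgE-binding chain, by -0.21 (SE 0.35). Cpa3, a mast cell protease at the lowest level on 5 of 6 arrays, differed by -0.20 (SE 0.16). Ms4a2, named after its values were seen, differed by only -0.05 (SE 0.19). It was at the lowest level on 1 CPB array and 2 sham arrays. Itgb7, an integrin of gut-homing lymphocytes, differed by -0.32 (SE 0.17) and was never more than 1 step above the lowest level. Spn, the sialoglycoprotein CD43, differed by 0.29 (SE 0.21), and only CPB replicate 1 held it above that level, by 2 steps. Cd48, an adhesion receptor of white cells, differed by 0.45 (SE 0.59). Cd48 varied with the replicate number more than with the group, at 9.76, 11.26 and 9.52 in CPB and 9.20, 11.31 and 8.68 in sham hearts. Of 5 recruitment genes, Cxcl1, a neutrophil-attracting chemokine, was above the lowest level on CPB replicate 2 alone, the CPB heart with the highest S100a9 value. Madcam1 and Xcl1 differed by -0.32 (SE 0.26) and -0.25 (SE 0.21), each with at least 2 arrays at the lowest level, and Cx3cl1, which tethers monocytes and was named after its values were seen, by 0.09 (SE 0.36).

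**Figure D4:**
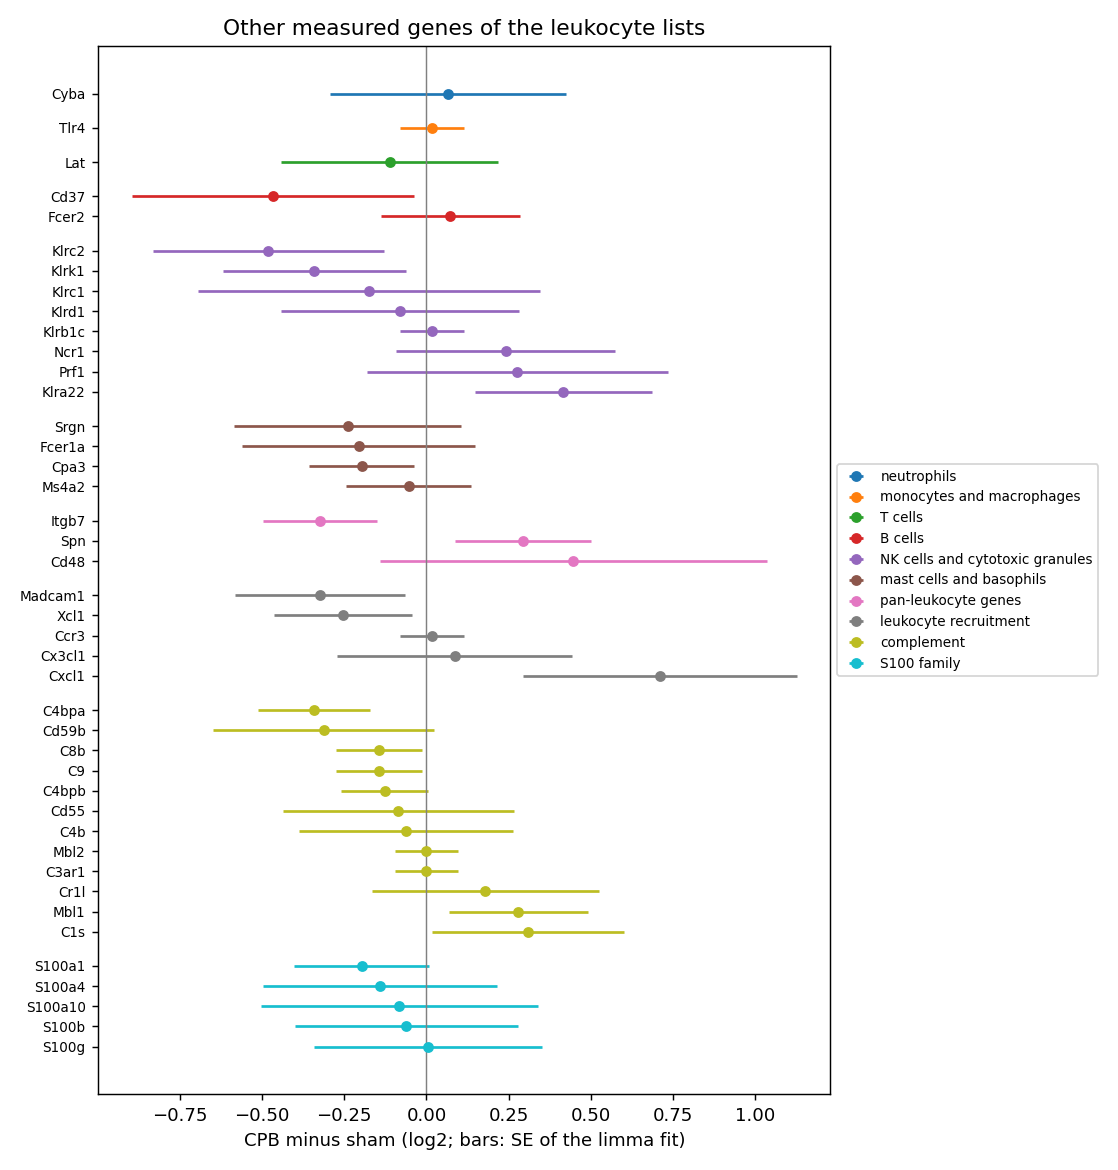
CPB minus sham log2 difference (horizontal axis) of the 42 other measured genes of the leukocyte lists, coloured by list, bars giving the SE of the limma fit. The points lie on both sides of 0 in most lists, and 0 of 42 passed the adjusted threshold.

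Other cell types of the heart were followed with the same fit. The summed intensity of 3 fibroblast genes measured of 13 (Sparc, Dcn and Thy1) was 13.56 to 14.45 in log2 in CPB and 14.97 to 15.18 in sham hearts, with none of the 3 at the lowest level on all arrays. Of these 3 genes, Sparc differed by -1.504 (SE 0.33, limma adjusted p = 0.371) with groups apart. Dcn, at 12.86, 13.21 and 11.32 in CPB and 13.70, 12.68 and 12.54 in sham hearts, and Thy1, at -0.10 (SE 0.35), had overlapping groups. The part of these genes in the myeloid difference was not tested. That of 8 heart muscle genes measured of 21 was 19.24 to 19.27 in CPB and 19.23 to 19.30 in sham hearts. Sums after quantile normalization are held nearly level for the brightest probes, which muscle genes are here. Endothelial genes (0 of 16 with a probe) and antigen presentation genes (0 of 36) were not measured.

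The genes whose pattern over the 6 hearts was most like that of each marker were taken from the named probes that exceeded the lowest level everywhere, 468 for 5 of the markers and 469 for Aif1, by Pearson's r. Values of r this high are found by taking the top of so many probes over only 6 hearts, and they are given as a description. For S100a9 they were Selenop, a selenium transport protein (r = 0.932), S100a4 (0.916) and Dmd, dystrophin (0.914). S100a4 stood 1, 5 and 1 steps above the lowest level on the CPB arrays and 1, 4 and 1 on the sham arrays. Dmd had the same values as S100a4 except on CPB replicate 2, so the patterns of both lie on few levels. Selenop was at 10.35, 10.75 and 10.81 in CPB and 10.88, 11.13 and 10.87 in sham hearts, a much smaller range than that of S100a9. For Lyc2 they were the potassium channel Kcnk3 (0.925), the muscle laminin receptor Itga7 (0.909) and the aldose reductase Akr1b1 (0.901), and for C1qb the nuclear envelope protein Syne1 (0.992), the actin-capping Tmod2 (0.930) and the laminin chain Lamb2 (0.891).

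Aif1 was most like Akr1d1 (r = 0.966), a steroid reductase, Hadhb (0.942), an enzyme of mitochondrial fatty acid oxidation, and Fth1 (0.897), the ferritin heavy chain. Cd8a was most like Arl1 (0.967), a small GTPase of the Golgi, Mthfd1 (0.899), an enzyme of folate metabolism, and Dlg3 (0.885), a scaffold protein. Arl1 was at 14.41, 14.41 and 15.45 in CPB and 14.24, 14.30 and 14.41 in sham hearts, high in CPB replicate 3 alone as Cd8a was. Cd3d was most like Grb14 (0.958), an adaptor of the insulin receptor, Rbm10 (0.943), a splicing factor, and Mef2d (0.942), a muscle transcription factor. S100a4, 1 step above the lowest level on most arrays, was the only gene of the leukocyte lists among these 18.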

How the data were processed

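Total RNA of 6 rat hearts was measured on 1 array each, and groups and replicate numbers come from the sample titles. No label states the unit of the deposited values, and their spacing is that of a natural log. On each array 2 times their hyperbolic sine lies on a grid of whole steps, to within 6.29e-06 of a step. How the authors obtained these levels, and with which array chemistry and software, is not given in the sources used here. Values were taken back to that linear scale, quantile normalized and converted to log2 with no pseudocount, because array medians differed by up to 2.52 times. CPB was compared with sham over all 1185 probes with limma 3.58.1 in R 4.3.3 (eBayes with a variance trend, two-sided, Benjamini-Hochberg adjustment, threshold 0.05), and the code was tested on simulated data. An exact permutation test of 3 against 3 cannot go below p = 0.1. Nothing in the labels says how the animals were processed, so errors measure the spread between these 6 samples.

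The 6 genes, the gene lists, the settings and the rule for named genes were chosen with earlier results of these data known. The rule names all 6 markers, the 3 genes with the smallest p in each list and the 3 probes most like each marker. Symbols come from the platform annotation (2 probes with several symbols and 70 unnamed were not named), and 1106 of 1113 gene identifiers were found in RefSeq (GRCr8), which also gave the sequences. Deviations from group means correlated at 0.240, 0.277 and 0.296 for arrays numbered 1, 2 and 3 (0.0584, 0.300 and 0.442 as deposited). Arrays of different numbers were not correlated for comparison. The percent of probes at the lowest level also went with the number, in CPB and sham. It was 27.4 and 25.9 for number 1, 10.7 and 20.5 for 2, and 47.3 and 43.3 for 3. Whether the numbers pair the hearts was not tested, and the labels do not say so. Alternatives were 3 other normalizations, a pseudocount at the 25th percentile, probes above the lowest level, no trend, a replicate block and leaving out each array.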

Additional observations from a re-analysis of the deposited data

How the results depend on the processing

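Of 114 values recomputed under an alternative, 110 stayed within the spread between replicates or within 1.5 times the count, and 4 did not. Member differences could not move under the replicate block, nor, for 5 genes, under the filter on the lowest level. The spread was also wide, at 0.89 for S100a9 and 0.84 for Cd8a. Moves of S100a9 from -1.07 to -0.54 and of Cd8a from 0.92 to 0.24 thus counted as within it. So did changes of sign for Aif1 and Cd3d. The count of probes past the limma adjusted threshold was 1 in the values as deposited (46 with an unadjusted p under 0.05) and 0 to 1 with an array left out, against 0 after quantile normalization. That probe, Sparc of the fibroblast list in both cases (as deposited and without CPB replicate 1), is none of the 6 markers, and the count over the 42 other leukocyte genes was 0 throughout, 0 to 0 with an array left out. Under a block for the replicate number, 0 of 1185 probes passed (38 unadjusted), and no call changed. The block left each difference as it was and gave an SE of 0.17 for S100a9, 0.31 for Lyc2, 0.10 for C1qb and 0.62 for Cd8a. Median scaling moved Lyc2 to -0.49 and C1qb to 0.067. With an array left out, the differences ran from -1.48 to -0.54 for S100a9, -1.04 to -0.68 for Lyc2, -0.52 to -0.27 for C1qb, -0.24 to 0.16 for Aif1, 0.24 to 1.34 for Cd8a and -0.45 to 0.03 for Cd3d, and from -1.33 to -0.53 for myeloid minus T cell markers. Leaving out 1 gene at a time, chosen after seeing the data, gave -1.497 to -0.43 for the last. Dim signal limits Aif1, Cd3d and Cd8a most, at 0 to 6 steps above the lowest level apart from Cd8a on CPB replicate 3.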
